A study of Homo sapiens with 9 samples.

Results

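The expression of 45 interferon-stimulated genes was followed one gene at a time in transfected human HEK293 cells. The genes were listed by symbol and matched to the Ensembl gene identifiers of the deposited table, where all 45 were found among 54562 genes. HEK293 is an embryonic kidney cell line that is widely used for transfection. The study asked how inclusion of an Alu exon changes ADARB1, an enzyme that edits adenosine to inosine in double-stranded RNA, and sequenced polyA RNA from 3 groups of 3 libraries. EV cells carried the empty vector, Short cells the ADARB1 isoform that skips the Alu exon, and Long cells the isoform that includes it. Each isoform was expressed from a pCMV6 plasmid, and the cells of all groups, EV included, were transfected with Lipofectamine 2000 and collected after 48 hours. Replicates 1, 2 and 3 of each group were transfections made in 3 different cell passages of the same line, so libraries with the same number were compared as pairs. Untransfected cells and cells given interferon were not analysed here, so EV shows the level after transfection and not the level of resting cells.

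Interferons are secreted proteins that cells release when they sense foreign nucleic acid. Type I interferons bind the receptor subunits IFNAR1 and IFNAR2, the kinases JAK1 and TYK2 phosphorylate STAT proteins, and a complex that holds STAT2 and IRF9 binds interferon-stimulated response elements (ISREs) in the promoters of target genes. The targets include sensors, antiviral effectors, and parts of the pathway itself, and many are kept at a basal level without added interferon. Double-stranded RNA and transfected DNA are both known triggers of the response, and RNA editing is known to change how cellular double-stranded RNA is sensed.

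Levels were measured as FPKM, the fragments of a gene scaled to transcript length and to library size, so that levels can be compared between genes. The libraries summed to 517170 to 541348 FPKM in EV, 533531 to 589535 in Short and 544461 to 567585 in Long. Every Long total was thus above every EV total, and a rerun with all libraries on a common total (TPM) is described below. The table gives no read counts, so no counting intervals were computed. Read from the spacing of the lowest values, the relative depths of the libraries, with EV replicate 1 as the reference, ranged from 0.993 to 1.21. ADARB1, the transfected gene, was at 7.66, 8.0 and 8.61 FPKM in EV, at 1889, 4145 and 2735 in Short, and at 1695, 3449 and 2080 in Long. Every library therefore matched its label as empty vector or ADARB1 plasmid, while the gene total does not tell the isoforms apart. The HEK293 markers VIM, NEFM, PAX2, CDH2, KRT8 and KRT18 each averaged 1 FPKM or more in EV. Of 7 leukocyte markers only CD68 averaged 1 FPKM or more in EV. The leukocyte sums were 2.56 to 3.02 FPKM in EV, 3.44 to 3.78 in Short and 3.35 to 3.75 in Long, with PTPRC at 0 to 0.131 and CD3E at 0 to 0.0436 in single libraries. The leukocyte sums of both isoform groups thus lay above those of EV, and CD68, at 1.87 to 2.90 FPKM over the libraries, made most of each sum. The sums of the 7 HEK293 markers found were higher in Long too, at 561 to 583 FPKM against 501 to 540 in EV, with Short at 533 to 615. The part of these shifts in the differences below was not tested.

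Most of the genes carried the letters of an ISRE close to their start. Promoter windows from RefSeq (GRCh38.p14; 250 bases before to 50 after the start) were found for 38 of the 45 genes. The ISRE core, spelled as GAAA, any 2 bases and GAAA and searched on both strands, lay in the windows of 27 of these 38 genes (71.1%), against 3.57% of all 35116 windows and 4.38% of the 27305 genes with a window. The gamma-activated site, an element through which interferon gamma acts, was spelled TTCNNNGAA and lay in 12 of the 38 (31.6%), against 9.38% of all genes. In 9 genes both motifs were found, and in 5 of them (BST2, EPSTI1, IFI27, IFITM1 and MX1) a match of one overlapped a match of the other. The sites below were chosen to run from the highest to nearly the lowest level in EV, and each is the ISRE or gamma-activated site in capitals with the 10 bases on either side, written 5′ to 3′ on the strand of the gene:
LGALS3BP: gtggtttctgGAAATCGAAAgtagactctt
IFITM3: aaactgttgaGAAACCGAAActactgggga
PARP9: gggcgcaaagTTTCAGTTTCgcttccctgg
ISG15: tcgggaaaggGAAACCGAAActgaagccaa
IFIT1: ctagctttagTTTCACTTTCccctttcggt
PARP14: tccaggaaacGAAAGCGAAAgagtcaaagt
SAMD9: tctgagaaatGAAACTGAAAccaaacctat
RSAD2: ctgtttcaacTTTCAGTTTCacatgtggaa
IRF1: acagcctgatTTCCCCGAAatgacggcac

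By exact match to GRCh37, these runs lay at chr17:76976044-76976073 on the minus strand (LGALS3BP), chr11:320876-320905 on the minus strand (IFITM3), chr3:122283169-122283198 on the minus strand (PARP9), chr1:948760-948789 on the plus strand (ISG15), chr10:91152254-91152283 on the plus strand (IFIT1), chr3:122399647-122399676 on the plus strand (PARP14), chr7:92747409-92747438 on the minus strand (SAMD9), chr2:7017753-7017782 on the plus strand (RSAD2) and chr5:131826571-131826599 on the minus strand (IRF1). The capitals began 58 bases before the start of LGALS3BP, 35 before IFITM3, 41 before PARP9, 107 before ISG15, 116 before IFIT1, 29 before PARP14, 136 before SAMD9, 145 before RSAD2 and 124 before IRF1. In PARP9, IFIT1 and RSAD2 the ISRE reads on the opposite strand, so that the capitals hold TTTC at either end. The PARP9 site is shared, since DTX3L starts beside it on the other strand and holds the same letters. IRF1 and IRF9, both transcription factors of the pathway, held the gamma-activated site and no ISRE in the window. An ISRE was found at each level in EV: 6 of 9 genes with an EV mean under 1 FPKM, 17 of 23 genes from 1 to under 10, and 4 of 6 genes at 10 or more. Promoters with the element thus ranged from that of LGALS3BP, at a mean of 71.8 FPKM in EV, to those of RSAD2, at 0.0713, and TAP1, listed at 0.

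In EV, 34 of the 45 genes (75.6%) averaged 1 FPKM or more, against 63.6% of the 19022 protein-coding genes and 25.3% of all genes in the table. TAP1 was the only member listed at 0 in the 3 EV libraries, 3 lay above 0 and under 0.1 FPKM (RSAD2, XAF1 and MX2), 7 from 0.1 to under 1, 27 from 1 to under 10, and 7 at 10 or more. The median EV level was 2.60 FPKM over the 45 genes and 4.85 FPKM over the protein-coding genes. The list was therefore present in EV cells more often than the average coding gene, but at moderate levels. The members on either side of 1 FPKM were SAMD9 at 1.07 ± 0.287 (SD, n = 3) and CMPK2 at 0.884 ± 0.108.

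The plot of levels by gene shows that the spread between genes was far wider than the spread between groups. The highest member was LGALS3BP, a secreted glycoprotein that binds galectin-3, at 81.4, 72.2 and 61.9 FPKM in EV. Next came the membrane proteins that block virus entry: IFITM1 at 59.0 ± 10.0 FPKM in EV (SD, n = 3), IFITM3 at 37.9 ± 6.52 and IFITM2 at 26.9 ± 0.592. LGALS3BP was higher than IFITM1, and IFITM1 higher than IFITM3, in 9 of 9 libraries, and IFITM3 was above IFITM2 in 9 of 9, so this order did not depend on the group. TRIM25, a ubiquitin ligase that acts on the RNA sensor RIG-I, followed at 15.8 ± 0.740 FPKM, STAT2 at 13.3 ± 0.719 and IFIT5, which binds RNA 5′ ends, at 10.1 ± 1.81. The ranges of TRIM25 and STAT2 over the 9 libraries overlapped, and those of STAT2 and IFIT5 met at 12.2 FPKM.

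The roles differed in how many of their genes were present. All 6 transcription factors and regulators reached a mean of 1 FPKM in EV: STAT2, IRF9 (6.19 ± 1.23 FPKM, SD, n = 3), IRF7 (5.48 ± 0.279), IRF1 (5.34 ± 0.877), IFI35 (1.52 ± 0.00985) and NMI (1.37 ± 0.233). All 5 genes of the ISG15 system were present as well. ISG15 is a ubiquitin-like protein that UBE2L6 and HERC5 attach to targets and USP18 removes, and the EV means were 9.16 ± 0.527 FPKM for USP18, 8.04 ± 1.36 for HERC5, 5.18 ± 1.01 for HERC6, 4.50 ± 1.75 for UBE2L6 and 4.25 ± 0.860 for ISG15 itself. USP18, which also restrains the type I receptor, was above ISG15 in 9 of 9 libraries, at 8.73 to 10.4 against 2.86 to 6.93 FPKM. The 4 genes of ADP-ribosylation were present, with PARP12 at 5.19 ± 0.666 FPKM, PARP9 at 4.61 ± 0.131, its partner DTX3L at 3.09 ± 0.0389 and PARP14 at 2.06 ± 0.191. So were the 4 TRIM proteins, among them TRIM21 (8.44 ± 0.792), a cytosolic antibody receptor, TRIM5 (8.23 ± 1.14), which recognises retroviral capsids, and TRIM22 (1.07 ± 0.115). PML (6.10 ± 0.508) and SP100 (2.26 ± 0.445), which build nuclear bodies, were both above 1 FPKM, and so was BST2 (2.19 ± 1.04), the membrane protein that tethers budding virus.

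Of the 11 genes under a mean of 1 FPKM in EV, 8 were MX GTPases or other antiviral effectors, and the rest were IFIT2, IFIT3 and TAP1. Both MX GTPases were under 1 FPKM, with MX1 at 1.20, 0.556 and 0.623 FPKM in EV and MX2 at 0.0101, 0 and 0. Of the 13 other effectors 7 reached 1 FPKM: LGALS3BP, IFI6 (6.44 ± 2.12 FPKM, SD, n = 3), EPSTI1 (2.60 ± 0.558), IFI27 (2.07 ± 0.405), the exonuclease ISG20 (1.67 ± 0.577), the helicase DDX60 (1.08 ± 0.150) and SAMD9. The 6 that did not were CMPK2, IFI44L (0.132 ± 0.0892), IFI44 (0.118 ± 0.0795), SAMD9L (0.107 ± 0.0980), RSAD2 (0.0713 ± 0.0697) and XAF1, which was listed at 0 in 8 of the 9 libraries and at 0.0120 FPKM in EV replicate 3. RSAD2, the enzyme viperin, makes a chain-terminating nucleotide and is among the genes known for the steepest induction by interferon.

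TAP1, which feeds peptides to MHC class I molecules, was listed at 0 in all 9 libraries, and no change can be read from it. It lies at chr6:32812986-32821593 (GRCh37), and 85 of the 148 protein-coding genes placed between 29 and 33 Mb of chromosome 6 (57.4%) were likewise listed at 0 in all libraries, against 10.0% of the 18874 other protein-coding genes. Among those at 0 were DDX39B, RING1 and PPP1R10, which most cells use, and the interferon-inducible proteasome subunits PSMB8 and PSMB9. HLA-B and HLA-C of the same region had values, at 30.6 to 46.9 and 49.1 to 77.0 FPKM.

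Members that lie side by side in the genome differed widely in level. The 4 IFIT genes, whose proteins bind viral RNA, follow each other on the plus strand of chromosome 10 within GRCh37 positions 91043451 to 91181362. IFIT5 was above IFIT1 in 9 of 9 libraries (6.97 to 12.2 against 2.20 to 2.97 FPKM), IFIT1 was above IFIT3 in 9 of 9, and IFIT3 was above IFIT2 in 9 of 9 (0.462 to 0.790 against 0.219 to 0.466). In EV the ratios of neighbouring means were 4.27, 3.87 and 1.68. IFIT3 held the most ISRE matches of any member, 4, but these were pooled over windows at different starts of the gene. Members were not compared by matches per window. LIPA, at a mean of 28.5 FPKM, overlaps IFIT1, IFIT2 and IFIT3 on the opposite strand, and how strand was treated in counting is not given in the sources used here.

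Other neighbouring pairs ranged from a wide gap to none. SAMD9 was above its neighbour SAMD9L on chromosome 7 in 9 of 9 libraries, with a ratio of EV means of 9.97, and CMPK2 was above RSAD2, which overlaps it on the other strand of chromosome 2, with a ratio of 12.4. TRIM5 was above TRIM22, which lies within it on the opposite strand, in 9 of 9 libraries with a ratio of 7.68. HERC5 was above HERC6 in 9 of 9 (ratio 1.55), and PARP9 above DTX3L, with which it shares the printed ISRE, in 9 of 9 (ratio 1.49). IFI44L and IFI44, the pair on chromosome 1, had no fixed order, since IFI44L was the higher in 6 of 9 libraries. The 3 IFITM genes on chromosome 11 are related to each other to differing degrees, and USP18 has a closely related copy in the genome. How reads were split between such copies is not known here and can make their levels uncertain.

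The rest of the pathway was present from receptor to transcription factor, but the ligands were not. Of the 28 other pathway genes listed, all 6 receptor subunits and all 7 kinases and transcription factors averaged 1 FPKM or more in EV, as did 3 of 5 genes that restrain signalling. IFNAR1 was at 13.1, 13.6 and 15.2 FPKM in EV and IFNAR2 at 11.0, 11.6 and 10.4. The kinases JAK1, at 20.4 to 24.7 FPKM in EV, and TYK2, at 44.9, 52.1 and 53.5, were higher still, while JAK2 averaged 2.63. The groups overlapped for IFNAR1, IFNAR2, JAK1 and TYK2. None of the 10 ligands reached 1 FPKM in any library. IFNE was the highest, at 0.364, 0.384 and 0.235 FPKM in EV, 0.214, 0.339 and 0.426 in Short and 0.0607, 0.180 and 0.273 in Long. IFNB1, the interferon that most cell types make first, was listed at 0 in EV, at 0.0573, 0.0530 and 0 in Short and at 0.0571, 0.0563 and 0 in Long. IFNE was above 0 in all 9 libraries, and for IFNB1, listed at 0 throughout EV, no fold was computed. Of the 16 pathway genes that averaged 1 FPKM or more over the 9 libraries, limma called 0 in each of the 3 comparisons (adjusted p under 0.05 by the Benjamini-Hochberg method), with 1, 3 and 0 at an unadjusted p under 0.05 in Short against EV, Long against EV and Long against Short. Of all genes tested, 0.0362%, 8.32% and 0.00725% were called in these comparisons, and 22%, 24.4% and 7.54% had such an unadjusted p. The 3 in Long were lower than in EV and were IFNGR1, JAK2 and PIAS1, a gene that restrains STAT signalling. Without replicate 3, limma called JAK2 and PIAS1 in Long against EV, so this count rested on that passage.

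Expression of the short isoform changed no single interferon-stimulated gene past the test. In bulk RNA the level per cell and the share of cells that express a gene cannot be told apart. Among the 32 members that averaged 1 FPKM or more over the 9 libraries, limma called 0 in Short against EV, where 0.0362% of all 13801 genes tested were called. At an unadjusted p under 0.05 there were 7 members, 5 higher and 2 lower in Short, where 22% of all genes tested had such a p. The fold changes, on the log2(FPKM + 1) scale, ran from -0.28 to 0.25 with a median of 0.04, the same as the median of all genes tested (0.04). The 95% intervals of all 32 members lay within 0.5 of 0 on that scale.

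**Figure D1:**
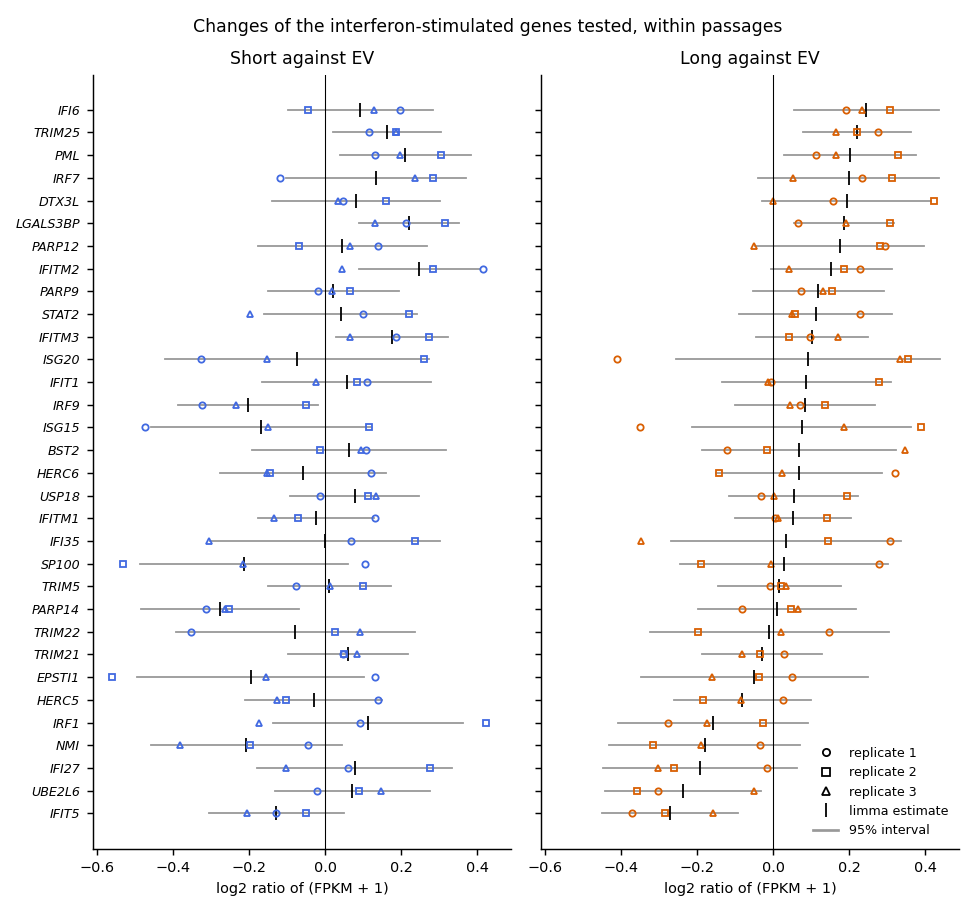
Log2 ratio of FPKM + 1 within each of the 3 cell passages for the 32 members tested, Short against EV (left) and Long against EV (right); each open symbol is 1 replicate number, the vertical tick the limma estimate and the grey line its 95% interval. Estimates lie between -0.28 and 0.25 in both panels, and the symbols of several genes fall on both sides of 0.

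The plot of ratios within passages shows which members moved one way in every pair. The largest estimate in Short belonged to PARP14, a large ADP-ribosyltransferase at chr3:122399686-122449687 (ENSG00000173193). It was at 2.17, 1.84 and 2.17 FPKM in EV and at 1.55, 1.38 and 1.64 in Short. The 3 Short values were all under the 3 EV values. The log2 fold change was -0.28 (SE 0.094, limma adjusted p = 0.138). PARP14 was at 1.99, 1.93 and 2.31 FPKM in Long, which overlapped EV. In an exact two-sided permutation test of 3 libraries against 3, p was 0.1, the smallest that this design allows. An exact test that flips the signs of 3 pairs cannot go below 0.25.

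IFITM2 was higher in Short in every pair, at 26.7, 27.6 and 26.5 FPKM in EV and 35.9, 33.8 and 27.4 in Short. Its pair in passage 3 differed least, and Short replicate 3 lay within the range of EV. The log2 fold change was 0.25 (SE 0.072, limma adjusted p = 0.114), and it was 0.16 without replicate 1. LGALS3BP was at 94.5, 90.0 and 67.9 FPKM in Short, each above the EV library of its own passage, but the groups overlapped (log2 fold change 0.22, SE 0.059, limma adjusted p = 0.110). This was the lowest adjusted p of any member in the comparison. With TPM the estimates were smaller, 0.17 for IFITM2 and 0.14 for LGALS3BP.

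PML was separate between the groups, at 6.68, 5.77 and 5.83 FPKM in EV and 7.41, 7.37 and 6.83 in Short (log2 fold change 0.21, SE 0.078, limma adjusted p = 0.160). NMI, a partner of STAT proteins, was lower in each pair, at 1.17, 1.32 and 1.62 FPKM in EV and 1.10, 1.02 and 1.01 in Short (log2 fold change -0.21, SE 0.113, limma adjusted p = 0.306). Both kept the 3 libraries of each group apart, and without replicate 3 the estimate of NMI was -0.12 (limma adjusted p = 0.694). In all, 3 of the 32 members had every Short value above every EV value (PML, TRIM25 and DTX3L), where 10.9% of all genes tested did so, and 2 had every Short value below (PARP14 and NMI), where 2.11% did so.

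Expression of the long isoform changed no member past the test either. Of the 32 members limma called 0, while 8.32% of all 13801 genes tested were called (1148 genes). That total varied with the libraries fitted. Without replicate 1 only 2 genes were called, without replicate 2 only 100, and without replicate 3 still 1031. It was 2 without the replicate block. Fits that leave out a passage hold fewer libraries, and the part of that loss in these counts was not tested. At an unadjusted p under 0.05 there were 6 members, 4 higher and 2 lower, where 24.4% of all genes tested had such a p. Fold changes ran from -0.27 to 0.24 with a median of 0.07, against 0.04 over all genes tested, and all 32 intervals lay within 0.5 of 0. Long and Short were compared with the same EV libraries, so the estimates of these comparisons are not independent.

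IFIT5 (ENSG00000152778, chr10:91174325-91181362) had the largest estimate in Long. It was at 9.54, 8.70 and 12.2 FPKM in EV, 8.63, 8.37 and 10.4 in Short, and 7.15, 6.97 and 10.8 in Long. Each Long library was under the EV library of its passage, and the groups overlapped, with passage 3 the highest in each. The log2 fold change was -0.27 (SE 0.081, limma adjusted p = 0.0663). With every library brought to one common total (TPM) it was -0.36 (limma adjusted p = 0.0205), and with median-ratio scaling -0.31 (0.0289), so the call depended on the scale. With a correction for GC content it was -0.03 (limma adjusted p = 0.878).

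TRIM25 (ENSG00000121060, chr17:54913748-54991441) had the lowest adjusted p. It was at 15.9, 16.4 and 15.0 FPKM in EV, 17.3, 18.8 and 17.2 in Short and 19.5, 19.3 and 16.9 in Long. Every isoform library was above every EV library. In Long the log2 fold change was 0.22 (SE 0.064, limma adjusted p = 0.0611), and in Short 0.16 (SE 0.064, 0.176). The Long estimate was smaller on other scales, at 0.15 with TPM (limma adjusted p = 0.224) and 0.18 with median-ratio scaling (0.133).

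IFI6, a small membrane protein that inhibits cell death, was at 5.65, 8.84 and 4.83 FPKM in EV and 6.60, 11.2 and 5.87 in Long. It was higher in each pair, yet its passages differed more than its groups (log2 fold change 0.24, SE 0.086, limma adjusted p = 0.112). UBE2L6, the ISG15-conjugating enzyme, was at 5.16, 5.83 and 2.52 FPKM in EV and 3.99, 4.32 and 2.40 in Long, lower in each pair (log2 fold change -0.24, SE 0.092, limma adjusted p = 0.147). PML was at 7.30, 7.51 and 6.66 FPKM in Long, above its EV partner each time (log2 fold change 0.20, SE 0.078, limma adjusted p = 0.145). Its Long and EV ranges just overlapped, since EV replicate 1 was at 6.68 FPKM. The members with every Long value above every EV value were PARP9 and TRIM25, 2 of 32, where 10.5% of all genes tested did so. No member had every Long value below, where 3.14% of all genes did so.

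The isoforms differed from each other in no member past the test. In Long against Short limma called 0 of the 32 members, with 0.00725% of all genes tested called, and 5 members had an unadjusted p under 0.05 (2 higher and 3 lower in Long), where 7.54% of all genes tested did so. The lowest adjusted p was 0.547. The 95% intervals of 26 members lay within 0.5 of 0 and those of all 32 within 1. The interval that reached lowest was that of IFI27, and the highest bound was that of ISG15, 0.53.

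UBE2L6 was lower in Long than in Short in every pair, at 5.06, 6.26 and 2.90 FPKM in Short (log2 fold change -0.31, SE 0.092, limma adjusted p = 0.547). IRF9, the DNA-binding part of the STAT complex, was higher in Long in every pair, at 3.86, 7.22 and 4.92 FPKM in Short and 5.40, 8.37 and 6.18 in Long (log2 fold change 0.29, SE 0.083, limma adjusted p = 0.547). The groups of both genes overlapped. PARP14 was separate, with all 3 Long values above all 3 Short values (log2 fold change 0.29, SE 0.094, limma adjusted p = 0.547).

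IRF1, a transcription factor that responds to interferon gamma, was at 6.82, 7.05 and 4.04 FPKM in Short and 5.06, 4.88 and 4.04 in Long (log2 fold change -0.27, SE 0.113, limma adjusted p = 0.639). Its libraries of passage 3 did not differ at this precision, and the other pairs gave the estimate. IFI27 was at 1.85, 3.27 and 1.75 FPKM in Short and 1.71, 1.94 and 1.39 in Long (log2 fold change -0.27, SE 0.115, limma adjusted p = 0.651), and without replicate 2 the estimate was -0.14 (limma adjusted p = 0.998). PARP9, PARP14 and SP100 were the 3 members with every Long value above every Short value, where 1.92% of all genes tested did so, and no member lay wholly below, where 1.91% did so.

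The 13 members under a mean of 1 FPKM were left out of the test across genes, and their values are given as a description. In Short, 4 of the 13 were lower than EV in all 3 pairs (SAMD9, DDX60, SAMD9L and IFI44) and 0 were higher. Of the genes under the filter, 7.79% and 7.09% were, those at 0 in every library aside. SAMD9 and DDX60 averaged 1.07 and 1.08 FPKM in EV and fell under the filter only through their lower isoform values. The filter thus favoured lower genes in this set, and the count is not read as a result about the members. In Long, SAMD9 was lower and MX2 higher in all 3 pairs, where 7.05% and 8.14% of such genes were. The 3 described next were picked out after their values were seen. SAMD9 (chr7:92728826-92747336), a cytosolic restriction factor of poxviruses, was at 0.976, 0.834 and 1.39 FPKM in EV, 0.260, 0.586 and 1.11 in Short and 0.267, 0.401 and 0.857 in Long. Each isoform library was below the EV library of its passage, and the groups overlapped through passage 3, where SAMD9 was highest. In a limma fit with no filter on low values the log2 fold change was -0.46 in Long (SE 0.101, adjusted p = 0.109) and -0.35 in Short (SE 0.101, adjusted p = 0.258).

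DDX60, a helicase that assists RNA sensing, was at 1.01, 1.26 and 0.982 FPKM in EV, 0.633, 0.608 and 0.925 in Short and 0.529, 0.503 and 0.998 in Long. All Short values were under all EV values, and Long replicate 3 was within the range of EV. The log2 fold change with no filter was -0.28 in Short (limma adjusted p = 0.367) and -0.32 in Long (limma adjusted p = 0.267). Among genes under the filter, which DDX60 joined only through its lower isoform values, 3.33% had every Short value below every EV value.

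MX2, a GTPase that blocks retroviral nuclear import, went the other way and from almost nothing. It was at 0.0101, 0 and 0 FPKM in EV, at 0, 0.00974 and 0.0155 in Short, and at 0.0582, 0.192 and 0.0972 in Long. All 3 Long values were above all 6 others, yet the highest was still under 1 FPKM, and no fold was computed against a group listed mostly at 0. The difference in log2(FPKM + 1) with no filter was 0.15 against EV (SE 0.038, limma adjusted p = 0.136) and 0.14 against Short (SE 0.038, limma adjusted p = 0.841). Among genes under the filter, 3.31% had every Long value above every EV value and 3.22% every Long value above every Short value. MX1, its neighbour on chromosome 21, was at 1.11, 0.701 and 0.365 FPKM in Long, where replicate 3 lay below every EV library.

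**Figure D2:**
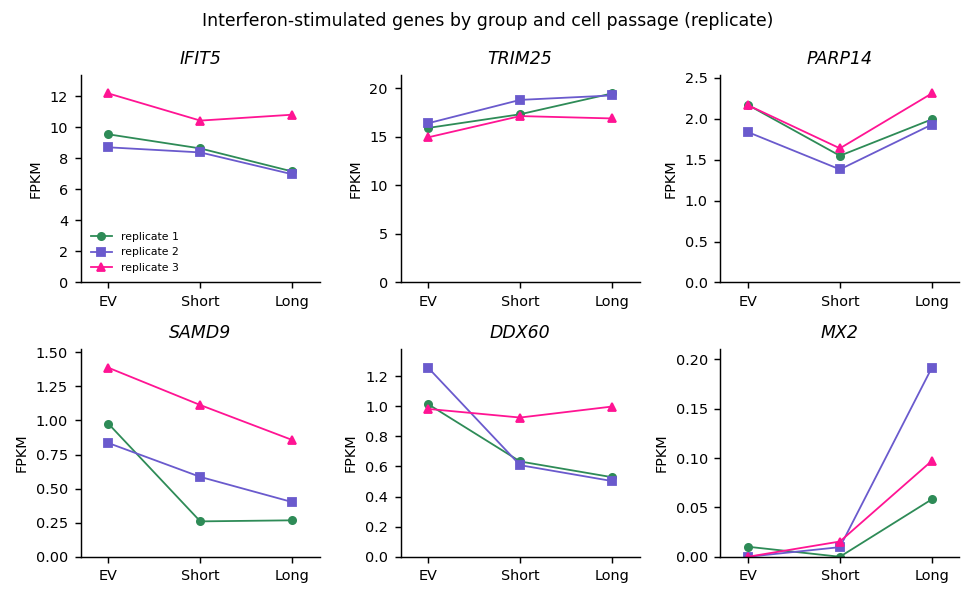
FPKM of 6 members in EV, Short and Long, with the 3 libraries of a cell passage joined by a line (linear axes starting at 0, a separate scale per gene). PARP14 is lowest in Short in every passage, SAMD9 is below EV in every passage, and MX2 has values above its EV and Short range in Long, up to 0.192 FPKM.

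The plot of 6 single members by group sets the estimates beside the spread between passages. IFIT5, TRIM25 and PARP14 were tested and did not pass, and SAMD9, DDX60 and MX2 lay under the filter. The passages of IFIT5 kept their order in all 3 groups, with passage 3 highest and passage 2 lowest.

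The estimates moved when base composition was taken into account, IFIT5 and TRIM22 most of all. The 32 members tested had a median GC content of 51.1% in their longest transcript, against 47.8% over all genes tested, with a range from 37.1% (TRIM22) to 66.8% (IRF7). After each library was corrected with a loess curve against GC content, the calls over all genes in Long against EV went from 1148 to 323, and the members called stayed at 0 in each comparison. The correction turned the sign of the estimate for 6 members in Short against EV, 6 in Long against EV and 2 in Long against Short. IFIT5, at 37.5% GC, lost nearly all of its difference in Long, as given above. TRIM22 went from -0.01 to 0.25 (limma adjusted p = 0.417). UBE2L6, at 57.2% GC, went from -0.24 to -0.33 (limma adjusted p = 0.0900), which became the lowest adjusted p of a member. TRIM25 kept an estimate of 0.14 and PML of 0.11 in Long, both smaller than without the correction, and IFI6 fell to 0.16 (limma adjusted p = 0.403). In Short against EV, LGALS3BP went from 0.22 to 0.12 (limma adjusted p = 0.362), PML from 0.21 to 0.12 (0.471) and IFITM2 from 0.25 to 0.17 (0.371). The part of base composition in these differences was not tested further.

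More members differed past the test between cell passages than between groups. This comparison was added after the data were seen. By limma's moderated F over the 3 replicate numbers, 13 of the 32 members differed between passages at an adjusted p under 0.05, where 36.4% of all genes tested did so. The share of members (40.6%) was thus near that of all genes. Passage 3 was the lowest for 10 of the 13, passage 2 for 2 and passage 1 for 1. Which passage was lowest was not counted over all genes called, so these counts are not read as a trait of the members.

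UBE2L6 had the lowest adjusted p, with means over the 3 libraries of a passage of 4.73, 5.47 and 2.61 FPKM (limma adjusted p = 0.00051). BST2 was at 2.82, 2.72 and 1.21 FPKM (limma adjusted p = 0.00105), and its libraries of passage 3 reached at most 1.52 FPKM. IFITM1 was at 66.0, 66.8 and 46.1 FPKM, IFITM3 at 45.2, 44.4 and 32.2, and LGALS3BP at 87.0, 83.9 and 66.8. In these genes passage 3 was apart from the other two, whatever plasmid the cells had received.

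Other members stood out in passage 2. IFI6 was at 6.29, 9.51 and 5.36 FPKM over passages 1, 2 and 3, ISG15 at 3.47, 5.85 and 3.40, and IRF9 at 4.78, 7.70 and 5.69 (limma adjusted p = 0.00139 for IRF9). The passage 2 libraries of each lay above all 6 others. IFI27 was at 1.77, 2.58 and 1.70 FPKM (limma adjusted p = 0.0356) with overlapping passages. HERC5 and IFIT5 went the other way and were highest in passage 3, HERC5 at 7.42, 6.88 and 9.10 FPKM and IFIT5 at 8.44, 8.01 and 11.1. TRIM5 (9.10, 8.64 and 7.12) and IRF1 (6.07, 5.64 and 4.26) completed the 13. STAT2, at 13.8, 14.1 and 13.6 FPKM (limma adjusted p = 0.908), and USP18, at 9.64, 9.75 and 9.05 (limma adjusted p = 0.520), did not differ past the test.

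**Figure D3:**
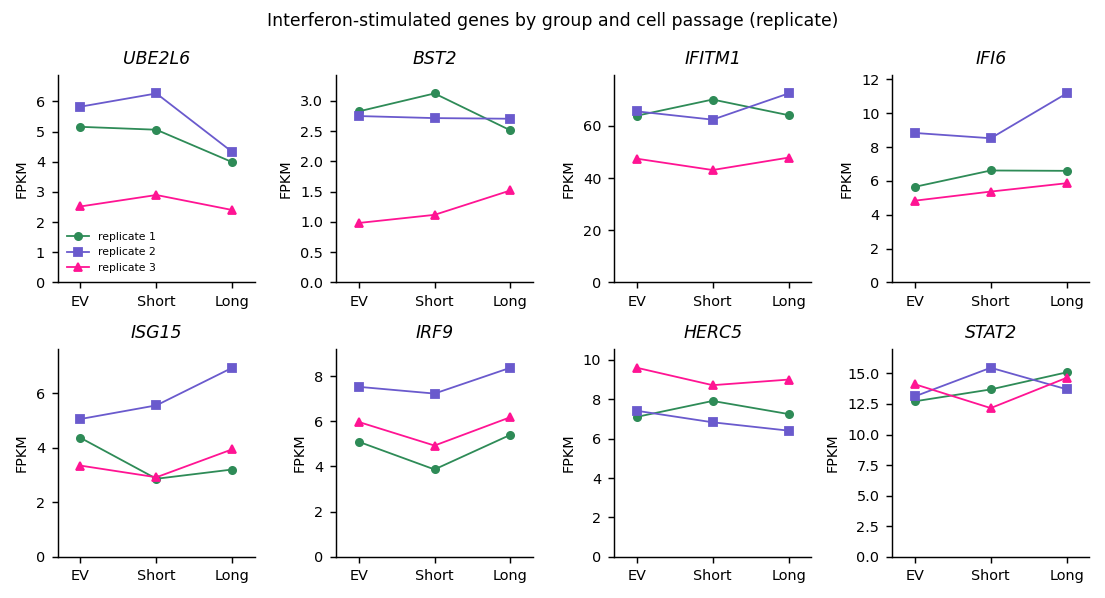
FPKM of 8 members in EV, Short and Long, with the 3 libraries of a cell passage joined by a line (linear axes starting at 0, a separate scale per gene). UBE2L6, BST2 and IFITM1 are lowest in replicate 3, IFI6, ISG15 and IRF9 are highest in replicate 2, and the lines of STAT2 cross.

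The plot of 8 members by passage shows lines that stay apart for UBE2L6, BST2 and IFITM1, where no library of replicate 3 reached the other two. After the GC correction 11 members were called between passages. IFIT5 (limma adjusted p = 0.691), IRF1 (0.112) and IFI27 (0.0761) were no longer among them, and EPSTI1 (0.0454) was added. What else the libraries of a replicate number shared, besides the passage, cannot be told apart from it.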

How the data were processed

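The authors sequenced strand-specific polyA libraries on an Illumina HiSeq 2000 and deposited a table of FPKM per Ensembl gene for 9 libraries, without pooling replicates. The submitters' processing notes name TopHat 1.4.1, Cufflinks and the build hg19. The annotation release and the use of strand in counting are not given in the sources used here. FPKM divides by library size, so very abundant transcripts lower all other values, and the depth behind a value is unknown.

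Symbols were matched through the GENCODE annotation of GRCh37 (87.2% of identifiers). Log2(FPKM + 1) was fitted with limma 3.58.1 in R 4.3.3 (lmFit, eBayes with trend) on all 9 libraries and the 13801 genes averaging 1 FPKM or more, with group and replicate number as terms, and p-values were adjusted over all 13801 genes by the Benjamini-Hochberg method at 0.05. The script was tested on simulated data. The replicate numbers mark cell passages, per the study's methods. Deviations from the group means correlated at 0.327 to 0.813 in the 9 pairs of libraries with the same number, with an average of 0.552. In the 18 other pairs the correlations ran from -0.634 to 0.366, with an average of -0.256. These ranges overlapped, since EV replicate 1 correlated at 0.366 with a Short library of another number. The correlations therefore did not set every replicate number apart. Deviations were taken within groups, so the averages of the same-number and other pairs are not independent. The numbers were taken as pairs on the study's methods and these averages. P-values for the group comparisons measure how the group differences varied between passages of 1 line, with the level of each passage fitted. Exact permutation tests were two-sided.

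Named were the 5 members of each comparison with the largest estimate among those that passed the filter and moved the same way in 3 pairs, the 6 highest in EV, those at 0 in EV, the members on either side of 1 FPKM, and neighbouring or related genes. Of the pathway list IFNAR1, IFNAR2, JAK1 and TYK2 were named, and further genes named by this rule or among the markers are not reported here. Other genes were named after their values were seen. The members, gene lists, tests and motifs were chosen with earlier results of these data known. Alternatives changed the pseudocount (0.1), the scale (TPM, median ratio), the block, the libraries fitted, the variance prior, the filter (none, mean of at least 5) and the GC content (loess, span 0.3), and left out each replicate. NEFL, LHX1 and PECAM1 were not matched by identifier.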

Additional observations from a re-analysis of the deposited data

Results flagged for a closer look

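IRF9 was the only member whose Short and Long libraries moved in opposite directions against EV in every passage. It was lower in Short than in EV in 3 of 3 pairs and higher in Long than in EV in 3 of 3 pairs, and the difference of Long against Short was 0.29 on the log2(FPKM + 1) scale (SE 0.083). Tested directly, this difference did not pass limma's threshold (adjusted p = 0.547), and over all alternatives the adjusted p ran from 0.276 to 1.00. The opposite direction depended on the processing. After the GC correction the Long estimate against EV went from 0.08 to -0.01, and that of Short from -0.20 to -0.28.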

How the results depend on the processing

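The count of members called in Long against EV went from 0 to 1 with TPM and to 1 with median-ratio scaling, IFIT5 both times, and stayed at 0 under the other alternatives run. In Short against EV and Long against Short it was 0 under all of them. The count of pathway genes called in Long against EV went from 0 to 1 with TPM (IFNGR1) and to 2 without replicate 3 (JAK2 and PIAS1), so leaving out that passage decided this count, and leaving out replicate 1 or 2 gave 0. The causes were not tested. Without the replicate block 0 members and 0 pathway genes were called in each comparison, and the lowest adjusted p of a member in Long against EV was 0.637 in place of 0.0611. Of the named fold changes, 172 values kept their direction and their side of the threshold, 2 crossed it (IFIT5 as above) and 0 reversed. Several changed in size when a passage was left out or the scale was changed, such as PML in Short, from 0.21 to 0.15 with TPM. The count of members present in EV ran from 30 (every EV library at 1 FPKM or more) to 37 (TPM, or a mean of at least 0.5 FPKM), and the count called between passages from 11 to 13. With 3 libraries a group, single intervals of members reached 0.53 on the log2 scale. Those of pathway genes reached -0.63 in Long against EV. Values near 0 FPKM carry no measure of counting error.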
